A study of Mus musculus with 3 samples.

Results

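The genes of the proteasome were examined in bulk RNA-Seq libraries of the mouse maxillary process, the embryonic facial prominence that forms the upper jaw. Members were chosen by name alone, as every protein-coding gene whose GENCODE M21 symbol is Psm, a letter from a to g and a digit, which gave 50 of the 55401 gene rows and of the 21897 protein-coding rows. The 3 libraries, OE replicates 1, 2 and 3, were made from RNA of maxillary processes dissected at E10.5, and all had the genotype *Wnt1cre; Rosa26Dlx2/-*, in which Cre driven by *Wnt1* regulatory sequence removes a stop cassette in neural crest cells and a CAG promoter at *Rosa26* then drives Flag-tagged *Dlx2*. The prominences were dissected whole, so blood, endothelium and surface epithelium, which do not come from the neural crest, were part of each sample. The wild-type libraries of the study were not analysed here, so nothing below compares genotypes. How many embryos stand behind each RNA sample is not given in the sources used here.

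The proteasome is the large protease that degrades ubiquitin-tagged proteins in the nucleus and cytosol of every cell. Its core particle is a barrel of stacked alpha and beta rings, and the cutting sites face inward on the beta subunits encoded by *Psmb5*, *Psmb6* and *Psmb7*. A regulatory particle, built from a base of ATPases and a lid, binds ubiquitin chains, unfolds the substrate and feeds it into the core. Some subunits have counterparts for particular tissues. The interferon-inducible *Psmb8*, *Psmb9* and *Psmb10* replace *Psmb5*, *Psmb6* and *Psmb7* in the immunoproteasome of immune cells, *Psmb11* replaces *Psmb5* in cortical epithelium of the thymus, and *Psma8* replaces *Psma7* in male germ cells.

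The libraries held 36544554, 35351031 and 40057435 counts on genes. *Dlx2* was counted at 235.5, 200.9 and 182.9 CPM (a gene's count relative to its library total, scaled by the TMM method of edgeR) in replicates 1, 2 and 3, with no control library to set beside it. Marker genes of facial mesenchyme were present in all libraries, with sums of 1564, 1532 and 1525 CPM over 7 genes, *Dlx2* itself among them. The even sum hides opposite moves, as 3 of these genes were higher and 4 lower in replicate 3 than the mean of the others. For example, *Prrx1* gave 628.6, 581.9 and 418.8 CPM and *Twist1* 317.5, 341.6 and 463.7 CPM. The libraries were unlike each other in other cell types. The sum of 6 neuron markers was 228.3 CPM in replicate 1 against 23.01 and 32.92 CPM in replicates 2 and 3, and the sum of 5 pigment cell markers ran from 4.897 through 33.58 to 155.2 CPM, highest in replicate 3. Sums of endothelial markers were 230.4 to 293.7 CPM over 6 genes, of erythroid markers 1922 to 4233 CPM over 4 genes and of epithelial markers 223 to 340.5 CPM over 6 genes. Replicate 3 also stood apart by base composition, as described below. The main results, other than most levels of single genes, are therefore also given without it. In bulk tissue, fewer cells of a type and less RNA per cell cannot be told apart.

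Proteasome genes took 0.7414%, 0.7552% and 0.9235% of all gene counts in replicates 1, 2 and 3 (0.8067% ± 0.1014, SD, n = 3), and 0.7483% on average without replicate 3. Of the 50 genes, 46 reached 1 CPM in every library, also when any library was left out. The other 4 were *Psma8*, *Psmb8*, *Psmb9* and *Psmb11*, which are all tissue-specific isoforms. Thus every constitutive subunit was detected in every library, while the testis isoform, the thymic isoform and 2 of the 3 immune isoforms were not detected at this level. The remaining immune isoform, *Psmb10*, reached 8.654, 9.581 and 18.08 CPM.

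**Figure D1:**
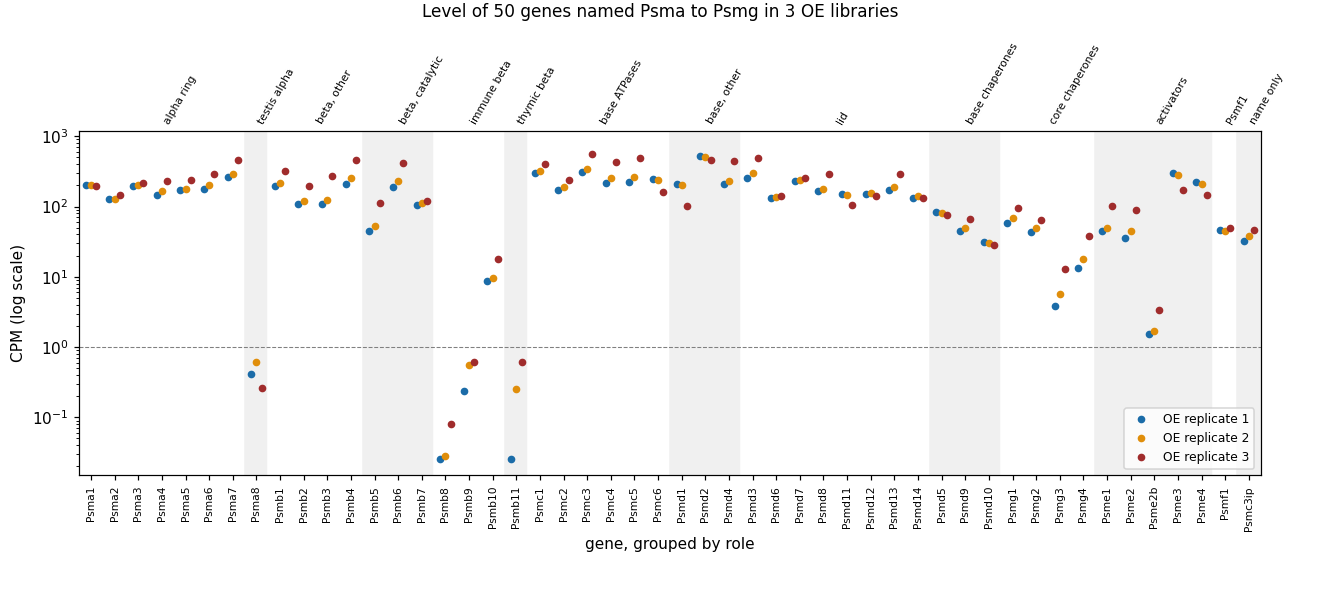
CPM (log scale) of the 50 genes in each of the 3 OE libraries, 1 point per library, grouped by the role of the encoded protein; the dashed line marks 1 CPM. Only *Psma8*, *Psmb8*, *Psmb9* and *Psmb11* have points below the line, and most constitutive subunits lie near or above 100 CPM.

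Within the alpha ring, all 7 constitutive genes were counted at mean levels between 134.6 CPM (*Psma2*) and 341 CPM (*Psma7*). *Psma1* was the steadiest, at 205.3, 204.1 and 198.6 CPM, and its counts did not differ beyond sampling noise (adjusted p = 0.11, chi-square test of the raw counts against the scaled library sizes, Benjamini-Hochberg over all genes tested). *Psma7* gave 263.9, 294.8 and 464.3 CPM, with replicate 3 above both others. The 4 beta subunits without a cutting site, *Psmb1* to *Psmb4*, had mean levels of 142 to 305.3 CPM. Of the 3 beta subunits with a cutting site, *Psmb6*, which cuts after acidic residues, had a mean of 281.3 CPM (150.3 CPM per kilobase of merged exons), *Psmb7*, which cuts after basic residues, 112.3 CPM (32.82 CPM/kb), and *Psmb5*, which cuts after hydrophobic residues, 70.19 CPM (78.07 CPM/kb). Per kilobase of merged exons *Psmb5* was thus above *Psmb7*. Per kilobase of the longest coding transcript the order of the means turned, with *Psmb7* at 96.8 CPM/kb and *Psmb5* at 78.07 CPM/kb. The order did not turn in replicate 3, where *Psmb5* was at 124.5 CPM/kb and *Psmb7* at 120.5 CPM over 1160 bases. Reads of both genes could also be split with other genes or discarded. Of the 100-base windows of *Psmb5* transcripts, 23.6% occur unchanged in *Gm3375*, and 12.1% of its exonic bases are shared with *Mir686*. *Psmb7* has no copied windows but shares 11.8% of its exonic bases with *Nek6* on the opposite strand. The effect on this order was not tested.

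Since long genes collect more reads, levels of different genes were compared per kilobase of their merged exons. On this scale the 14 constitutive core subunits, which the finished particle holds in equal number, ran from 32.82 CPM/kb for *Psmb7* to 180.8 CPM/kb for *Psma6*, a 5.509-fold span that was 4.882-fold without replicate 3. The order depended on the length used. Per kilobase of the longest coding transcript, the lowest was *Psma2* (46.23 CPM/kb) and the highest *Psmb6* (352.6 CPM/kb), 7.626-fold apart.

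The constitutive catalytic subunit far exceeded its immune counterpart in 2 of the 3 pairs. *Psmb8* (chr17:34197721-34201454, mm10) received 1, 1 and 3 counts in replicates 1, 2 and 3, which is at or under the 3 counts taken as the limit of detection in each library. *Psmb5* (chr14:54614119-54618022) received 1734, 1910 and 4218 counts. Over the summed libraries, *Psmb5* was 5914 times as high as *Psmb8* per exonic length, with a 95% interval for counting error of 2533 to 18220. The log2 ratio was 12.62 ± 0.23 (SD, n = 3), and 12.74 without replicate 3. With so few counts of *Psmb8*, this SD is a poor measure of the spread between libraries. *Psmb9* (chr17:34181987-34187764) received 9, 20 and 23 counts against 7312, 8327 and 15845 for *Psmb6* (chr11:70525367-70527858). The log2 ratio of *Psmb6* to *Psmb9* per exonic length was 10.23 ± 0.5 (SD, n = 3), and 10.15 without replicate 3.

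*Psmb10* was the exception among the immune isoforms. It received 334, 341 and 681 counts, against 4071, 3945 and 4541 for *Psmb7*. *Psmb7* was 6.075, 5.766 and 3.323 times as high per exonic length in replicates 1, 2 and 3, a log2 ratio of 2.29 ± 0.48 (SD, n = 3), or 2.57 without replicate 3. The intervals for counting error were 5.432 to 6.812 and 5.161 to 6.459 in replicates 1 and 2 and did not overlap that of replicate 3, 3.065 to 3.607. These cover counting error only. The log2 deviation of replicate 3 from the mean of the others was 0.99 for *Psmb10* and 0.16 for *Psmb7*, and 0.36 and 0.25 once a trend on length and GC content over all genes was removed, so most of the difference between the genes was lost. The choice of length bears on this ratio, since the merged exons of *Psmb7* span 3421 bases and its longest coding transcript 1160 bases. On coding transcript length the log2 ratio was 3.47 ± 0.48. Together the 3 immune isoforms made up 2.75%, 2.594% and 2.731% of the 6 catalytic subunits per exonic length (2.692% ± 0.08495, SD, n = 3), and 2.672% without replicate 3. This share hardly differed between the libraries and rested almost wholly on *Psmb10*.

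The thymic and testis isoforms were also far below their constitutive counterparts. *Psmb11* (chr14:54621433-54629556), whose RefSeq start lies 7315 bases from that of *Psmb5*, received 1, 9 and 23 counts. Replicate 1 was under the detection limit and the other libraries were above it. The log2 ratio of *Psmb5* to *Psmb11* was 11.08 ± 1.81 (SD, n = 3), a spread that rests on the single count in replicate 1, and it was 10.04 without replicate 1, 11.55 without replicate 2 and 11.66 without replicate 3. *Psma8* received 16, 22 and 10 counts against 10185, 10493 and 17492 for *Psma7*, which placed *Psma7* 645.8 times as high per exonic length over the summed libraries (95% interval for counting error 487 to 876). The log2 ratio was 9.36 ± 0.98 (SD, n = 3), 8.81 without replicate 3 and 10.21 on coding transcript length. Unlike *Psma7*, *Psma8* was lowest in replicate 3, although its 3 counts did not differ beyond sampling noise (adjusted p = 0.0828, same chi-square test). For each of the 5 pairs the constitutive gene was higher in 3 of 3 libraries. An exact two-sided sign-flip test over the libraries gave p = 0.25 for each, which is the smallest p that 3 libraries allow.

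**Figure D2:**
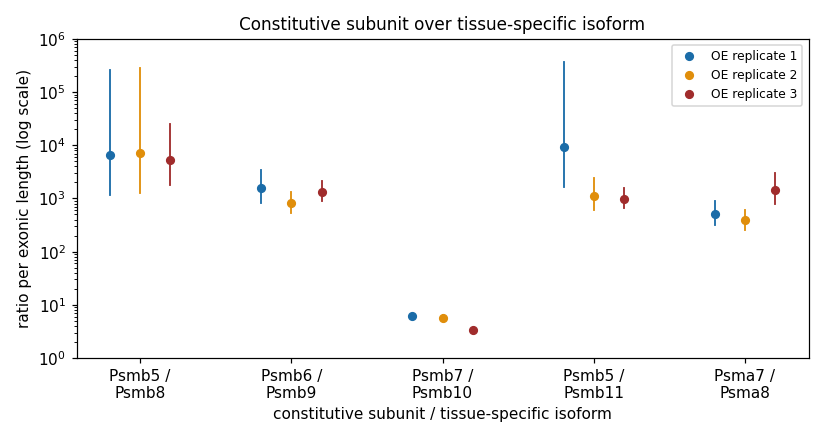
Ratio of the constitutive subunit to its tissue-specific isoform per exonic length (log scale) in each OE library; vertical lines are 95% intervals for counting error, which are hidden by the points for *Psmb7* over *Psmb10*. All ratios lie above 1, from 3.323 for *Psmb7* over *Psmb10* in replicate 3 to 9241 for *Psmb5* over *Psmb11* in replicate 1.

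Genes that mark the cells and signals in which these isoforms are used had varied levels. Of the thymic epithelium markers, *Foxn1*, the master regulator of that epithelium, received 16, 2 and 5 counts and the thymic protease gene *Prss16* received 4, 5 and 4, while *Dll4* and *Ccl25*, which other cells also express, were at 8.835, 9.272 and 9.45 CPM and at 2.98, 3.315 and 4.061 CPM. The list of 5 markers, which holds *Psmb11* itself, summed to 12.36, 13.04 and 14.36 CPM. The 9 germ cell and meiosis markers summed to 15.11, 20.76 and 22.38 CPM, mainly from *Stag3*, *Mnd1* and *Dmc1*, each above 1 CPM in every library, while *Sycp1* and *Hormad1* had no count in any library. The 8 genes of MHC class I presentation summed to 58.74, 62.82 and 68.51 CPM. *Nlrc5*, the activator of MHC class I genes, received 2 counts in each library. *B2m*, the light chain of MHC class I, was counted at 29.64, 29.92 and 31.35 CPM, and the peptide transporter gene *Tap1*, whose RefSeq start lies 226 bases from that of *Psmb9* on the opposite strand, at 2.28, 1.939 and 2.601 CPM. Others of the 8 moved more. *H2-K1* gave 4.612, 5.085 and 7.857 CPM and *H2-D1* 10.57, 13.32 and 16.38 CPM, whereas *Erap1* gave 5.001, 3.568 and 1.752 CPM. Of the 7 tested, 5 were above 0 in replicate 3 and 2 below. The 11 interferon response genes summed to 44.15, 45.94 and 54.58 CPM. All 6 of them with enough counts to test were above 0 in replicate 3 on the log2 scale, with a median of 0.57, where 48.7% of all genes were above 0. The part of the interferon response genes in the level of *Psmb10*, which was also highest in replicate 3, was not tested. All 10 macrophage markers had more than 3 counts in every library, and 7 of them reached 1 CPM in every library, with *Aif1*, *Adgre1* and *Ptprc* below it in at least 1. Their sum was 29.61, 39.19 and 47.3 CPM. In replicate 3, where *Psmb10* was highest, 7 of the 10 were above 0 on the log2 scale, with a median of 0.69, beside 48.7% of all genes. *Adgre1*, *Ptprc* and *Cx3cr1* were lowest there. The part of macrophages in the level of *Psmb10* was not tested.

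Sequence around the RefSeq starts was searched for motifs. In cells with a blocked proteasome, the factor NFE2L1 is known to raise proteasome genes through antioxidant response elements. The core of that element, TGACNNNGC, was searched on both strands from 250 bases before to 50 after the RefSeq starts (build GRCm38.p6). It occurred for 6 of the 42 genes with such a window (14.3%) and for 14% of all 27025 genes in the table, so the share was near the background. The 6 were *Psmb5*, *Psmb6*, *Psmc6*, *Psmd9*, *Psmd12* and *Psme4*. None of *Psmb8*, *Psmb9*, *Psmb10* and *Psmb11* held these letters, but all 250 bases before the RefSeq start of *Psmb8*, *Psmb9* and *Psmb11* lie in exons of longer GENCODE transcripts, as do 52 of those of *Psmb10*, 27 of those of *Psmb5* and 0 of those of *Psmb6*, so the windows are not alike. *Psmb7* had no window in the table. The sequences of the catalytic genes with a match are shown 5′ to 3′ on the strand of the gene, with the match in capitals, and cover the bases before the start that lie in no GENCODE exon: chr14:54618023-54618245 (minus strand) for *Psmb5* and chr11:70525107-70525356 (plus strand) for *Psmb6*.
Psmb5: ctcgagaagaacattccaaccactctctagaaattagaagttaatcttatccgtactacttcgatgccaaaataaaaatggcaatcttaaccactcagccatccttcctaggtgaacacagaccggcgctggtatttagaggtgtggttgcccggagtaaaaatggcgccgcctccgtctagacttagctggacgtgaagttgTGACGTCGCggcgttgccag
Psmb6: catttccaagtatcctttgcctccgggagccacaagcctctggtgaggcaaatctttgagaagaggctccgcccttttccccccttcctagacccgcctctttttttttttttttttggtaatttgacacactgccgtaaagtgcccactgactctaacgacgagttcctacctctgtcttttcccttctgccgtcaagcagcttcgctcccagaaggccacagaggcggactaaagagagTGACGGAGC

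The match began 47 bases before the RefSeq start of *Psmb5* and 9 bases before that of *Psmb6*. A match of letters is a description, and its absence says only that the letters are not in this window. The core of the interferon response element, GAAANNGAA, occurred in the windows of 7 of the 42 genes (16.7%), against 9.76% of all genes. It was held by *Psme1*, which encodes an interferon-inducible activator, and by *Psmb3*, *Psmb4*, *Psmc2*, *Psmd4*, *Psmd9* and *Psmg4*, but not by the windows of *Psmb8*, *Psmb9* or *Psmb10*. The limit given above holds here too, as all 250 bases before the start of *Psmb8* and *Psmb9*, and 52 of those of *Psmb10*, lie in exons of longer transcripts. The CCAAT letters occurred for 15 of the 42 genes (35.7%), against 41.1% of all genes.

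In the regulatory particle, the 6 ATPase genes of the base had mean levels from 201.1 CPM (*Psmc2*) to 402.3 CPM (*Psmc3*). They did not move together across the libraries. *Psmc5* gave 224.8, 260.1 and 496.1 CPM, highest in replicate 3, whereas *Psmc6* gave 244.4, 241.5 and 161.5 CPM, lowest in replicate 3. With the trend of that deviation on exonic length and GC content over all genes removed (described below), replicate 3 stood at 0.6 for *Psmc5* and -0.1 for *Psmc6* on the log2 scale. A contrast was also seen between the large scaffold subunits and the ubiquitin receptor of the base. *Psmd1* (chr1:86064387-86139151), a scaffold, gave 212.1, 203.3 and 100.9 CPM, while *Psmd4*, the receptor, gave 205.8, 230.2 and 446.5 CPM, and with the trend removed replicate 3 stood at -0.55 for *Psmd1* and 0.72 for *Psmd4*. *Psmd2*, the other scaffold (chr16:20651652-20663414), had the highest mean CPM of the 50 genes, at 519.2, 502.9 and 459.6, and its mean ranked 265 among all genes. In replicate 3 *Psmc3*, *Psmc5*, *Psmd3* and *Psma7* were above it. Per kilobase of merged exons it was at 122.3 CPM/kb, and *Psmc5* was the highest at 234.6 CPM/kb.

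The 8 lid genes had mean levels of 133.9 to 349.4 CPM. *Psmd14*, the enzyme that removes the ubiquitin chain, was steady at 134.2, 141.2 and 133.6 CPM, and its partner *Psmd7* gave 231.3, 240.2 and 252.6 CPM. *Psmd3* gave 255.2, 303.7 and 489.4 CPM and *Psmd11* 150.6, 147.3 and 103.8 CPM, but with the trend removed replicate 3 stood at 0.55 for *Psmd3* and -0.13 for *Psmd11*. The assembly chaperones of the base were lower. *Psmd5* gave 82.19, 81.22 and 76.03 CPM, *Psmd9* 44.33, 49.11 and 65.38 CPM and *Psmd10* 30.81, 30.17 and 28.64 CPM, and the counts of *Psmd10* did not differ beyond sampling noise (adjusted p = 0.232, same chi-square test). The core chaperones ran from 7.47 ± 4.838 CPM (SD, n = 3) for *Psmg3* to 73.27 ± 19.16 CPM for *Psmg1*, and all 4 were highest in replicate 3. *Psmg3* gave 3.809, 5.647 and 12.95 CPM, and its mean was 4.875 CPM without replicate 3.

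The proteasome activators differed in their direction across the libraries. *Psme3*, whose product caps the core in the nucleus, gave 298.8, 281.3 and 171.7 CPM, and *Psme4*, a large single-chain activator, gave 226.8, 206.8 and 145.9 CPM. The interferon-inducible pair *Psme1* and *Psme2* was highest in replicate 3, with *Psme1* at 45.03, 49.73 and 101.2 CPM and *Psme2* at 35.89, 44.87 and 88.5 CPM. Per kilobase of merged exons, the mean levels were 84.98 CPM/kb for *Psme3*, 31.98 CPM/kb for *Psme2*, 29.57 CPM/kb for *Psme1* and 23.05 CPM/kb for *Psme4*. This order rested on replicate 3, since in replicate 1 *Psme4* (27.05 CPM/kb) was above both *Psme1* (20.39 CPM/kb) and *Psme2* (20.34 CPM/kb), and in replicate 2 *Psme4* (24.68 CPM/kb) was above *Psme1* (22.51 CPM/kb). With the length and GC trend removed, the deviation of replicate 3 was -0.78 for *Psme3* and 0.08 for *Psme4*. *Psme2b*, a near copy of *Psme2*, gave 1.529, 1.686 and 3.345 CPM. Of the 100-base windows of *Psme2b* transcripts, 52% occur unchanged in *Psme2*, so reads could be split between these genes or discarded. *Psmf1*, an inhibitor of the core in vitro, gave 45.76, 44.62 and 49.61 CPM. *Psmc3ip* was a member by name only, as its product works in meiotic recombination, and gave 32.72, 37.7 and 46.88 CPM.

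The libraries differed in most of these genes by more than sampling noise. Of the 49 genes with a mean of at least 10 counts, 46 differed (93.9%) at an adjusted p under 0.05, as did 81.5% of the 17115 genes tested. The 3 that did not were *Psma1*, *Psma8* and *Psmd10*, and *Psmb8* had too few counts to test. This test compares 3 libraries of 1 genotype and no conditions. By size, 30 of the 49 (61.2%) had a highest CPM more than 1.5 times the lowest, close to the 62.2% of all genes. Without replicate 3, 35 of 48 members (72.9%) and 48.8% of 16890 genes differed beyond sampling noise. Their biological coefficient of variation, the spread beyond counting error as edgeR estimates it, had a median of 0.274 (range 0.214 to 0.82, *Psmb11* the highest), beside 0.339 for all genes, and was 0.115 without replicate 3, beside 0.209 for all genes. The low end lies near 0.212, the lowest value of any gene tested, and *Psma1*, at 0.214, did not differ beyond sampling noise. In these comparisons all genes were not matched to the members in level.

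**Figure D3:**
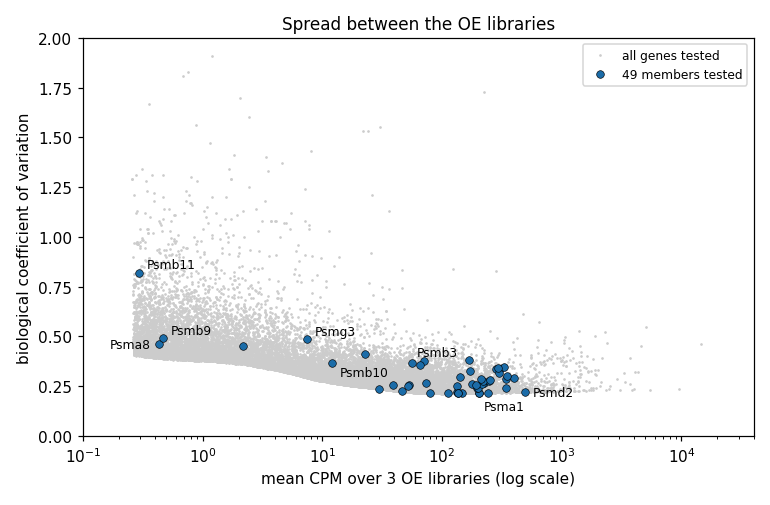
Biological coefficient of variation across the 3 OE libraries against mean CPM (log scale); grey points are all genes tested and blue points the 49 members tested. The members have a median of 0.274 beside 0.339 for all genes, and *Psmb11* is the highest member at 0.82.

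The differences lay mainly in replicate 3 and ran in 1 direction more often than in the other. The log2 CPM in replicate 3 minus the mean of replicates 1 and 2 had a median of 0.55 over the 49 genes, with 37 above 0 and 12 below, beside a median of -0.03 over all genes. In replicate 1 the median was -0.4 and in replicate 2 it was -0.13, each against the mean of the other libraries. Replicate 3 exceeded both others by more than 1.5 times in 20 of the 49 genes (40.8%), against 19.6% of all genes. It was below both by more than 1.5 times in 3 genes, *Psma8*, *Psmd1* and *Psme3* (6.12%), against 19.4% of all genes. By role, the median was 1.03 for the activators, of which 3 were above 0 and 2, *Psme3* and *Psme4*, below, 1 for the constitutive catalytic beta subunits, 0.94 for the core chaperones, 0.89 for the noncatalytic beta subunits, 0.6 for the ATPases, 0.42 for the constitutive alpha subunits, 0.08 for the lid, -0.09 for the base chaperones and -0.15 for the base subunits other than the ATPases. With the trend on length and GC content removed the order changed, and the medians were 0.74 for the noncatalytic beta subunits, 0.58 for the alpha subunits, 0.54 for the activators, 0.46 for the base chaperones, 0.44 for the ATPases, 0.35 for the core chaperones, 0.31 for the catalytic beta subunits, 0.17 for the lid and -0.13 for the other base subunits.

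The direction in replicate 3 went with base composition. Of the 17 genes whose longest coding transcript had a GC content over 52%, all 17 were above 0, with a median of 0.99. The 22 genes between 46% and 52% had a median of 0.42, with 17 above 0, and the 10 genes under 46% a median of -0.07, with 3 above 0. Over all genes 48.7% were above 0, but their shares within these GC classes were not computed. The counts by class therefore do not set the members apart from other genes of like GC content. Spearman's rho between GC content and the deviation of replicate 3 was 0.77 over the 49 genes and 0.44 over 17101 genes, and with exonic length it was -0.44 over both. These are descriptions across genes of the same 3 libraries, and genes are not independent replicates. The GC content of the 49 was no higher than usual, with a median of 49.77% against 50.14%, and they were shorter, with a median of 2800 exonic bases against 3871. With the trend on length and GC content fitted over all genes and removed, the median of replicate 3 was 0.39, and 40 of the 49 genes were above 0, beside a median of 0.03 over all genes. *Psmg3* then stood at 1.07 and *Psmd1* at -0.55. The part of base composition in these differences was not tested.

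**Figure D4:**
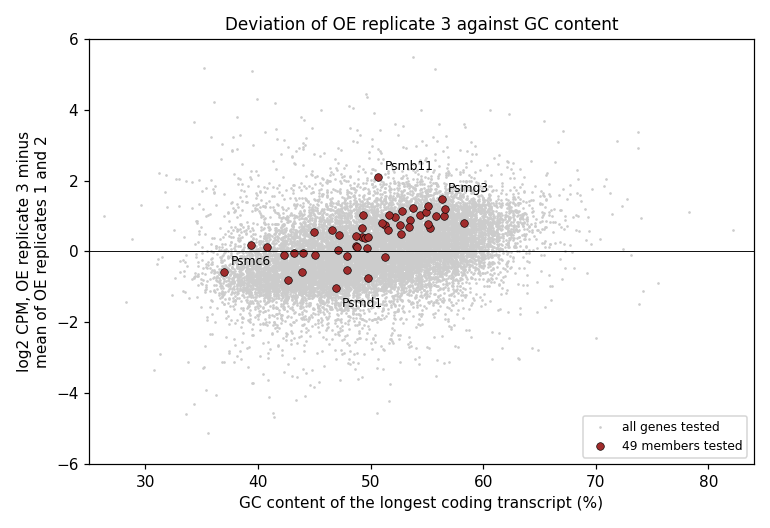
Log2 CPM in OE replicate 3 minus the mean of OE replicates 1 and 2, against the GC content (%) of the longest coding transcript; grey points are all genes tested and red points the 49 members tested. The members rise with GC content (Spearman's rho 0.77), for example from *Psmc6* at -0.59 to *Psmg3* at 1.47.

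Other genes of the pathway were read from a list of partners. Of the other subunit and chaperone genes, *Adrm1*, a ubiquitin receptor, gave 153.9, 195 and 339.7 CPM, *Sem1*, a small lid subunit, 58.87, 79.9 and 145.7 CPM, and *Pomp*, the core maturation factor, 118.6, 132.6 and 221.4 CPM. These 3 were highest in replicate 3, as were most core subunits. *Akirin2*, which carries proteasomes into the nucleus, was lowest there, at 129.7, 123.7 and 86.46 CPM. The 7 genes for enzymes and cofactors that bind the proteasome, such as the deubiquitinase *Usp14* at 113.6, 105.4 and 65.67 CPM, were all below 0 in replicate 3 on the log2 scale, with a median of -0.42, where 48.7% of all genes were above 0. The trend on length and GC content was not removed for these partner genes. The 4 regulator genes were *Nfe2l1*, the protease *Ddi2* and the glycanase *Ngly1*, which process its product, and *Nfe2l2*, which encodes a related but separate factor, and they were also all below 0, with a median of -0.52. *Nfe2l1* itself gave 155.6, 138.9 and 125.4 CPM, lowest in replicate 3, where *Psmb5* and *Psmb6* were highest. All 6 ubiquitin genes and all 8 genes for shuttle factors and the VCP complex differed beyond sampling noise, as did 81.5% of all genes, with 4 of 6 and 4 of 8 above 0 in replicate 3.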

How the data were processed

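Poly(A) RNA of 3 samples was sequenced as paired reads. The authors mapped the reads to mm10 with STAR 2.7.3a and, per the labels, counted them with HTSeq 0.12.4; the deposited values are raw counts per Ensembl gene. The annotation release and strand setting are not given in the sources used here, and the kit named does not mark strand, so exons shared with a neighbour or an antisense gene are uncertain. Summary lines that name no gene (14.2% to 16.4% of all counts) were left out. IDs were matched to GENCODE M21 (55141 of 55401). Counts were scaled by TMM and spread was estimated with an intercept-only fit (edgeR 4.0.16, R 4.3.3) over 17115 genes with a mean of at least 10 counts. The genes named were all 50 members plus fixed lists of partners and cell type markers. The rule for members used names only, but the rule and the lists were set with earlier results of these data known. Replicate numbers follow accession order and pair nothing. The labels state that the RNA samples were independent.

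Log2 CPM used a prior count of 2. Intervals are exact binomial intervals of 95%, on the counts of single libraries or on summed counts as stated. Like the 3-count limit (0.0777 to 0.0843 CPM), they cover counting error only. The scripts were tested on simulated data. Alternatives were DESeq2 1.42.0 size factors and dispersions, library size alone, no count filter, another prior count, other lengths, a removed trend on length and GC content (mgcv 1.9.3), a fold rule and leaving out each library. Promoter sequence came from RefSeq (GRCm38.p6), where 42 of the 50 members had a window.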

Additional observations from a re-analysis of the deposited data

Results flagged for a closer look

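Counts appeared on 12 rows of processed pseudogenes and related transcripts that share unchanged stretches with proteasome genes, above the 3 counts that a count of 0 allows in every library. The largest were *Gm3375*, which holds sequence of *Psmb5*, with a mean of 81 counts, and *Gm13835*, which holds sequence of *Psma3*, with 78.67. For *Psma5*, *Gm12989* had 36.67 and *Gm8394* 34.67. For *Psmc1*, *Gm9575* had 51 and *AC110212.1* 7.333, and for *Psmb3*, *AC114990.1* had 28 and *Gm4950* 19. *Gm5422* had 34.67 beside *Psmd2*, *Gm6542* 27 beside *Psma4*, *A730017L22Rik* 24 beside *Psmd11* and *Gm6474* 17.33 beside *Psma2*. Each is small beside the count of its parent gene. Whether these reads came from the copy or from the parent was not tested.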

How the results depend on the processing

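Of 330 alternative values for 64 results, 303 kept their direction and moved by no more than the spread between libraries (for counts and coefficients of variation, by no more than 1.5 times; for the median deviations, by no more than 0.1), 26 moved further and 1 reversed; 8 of the moves were mean levels of single genes. The isoform log2 ratios depended on length. On coding transcript length, *Psmb5* to *Psmb8* was 11.56, *Psmb7* to *Psmb10* 3.47 and *Psma7* to *Psma8* 10.21. With no length correction, *Psmb5* to *Psmb8* was 10.71, *Psmb6* to *Psmb9* 9.27, *Psmb7* to *Psmb10* 3.29 and *Psmb5* to *Psmb11* 8.67. The immune share was 1.772% and the span of core subunits 7.626-fold on coding transcript length. A fold rule in place of the chi-square test called 30 members, since it asks for size. The median deviation was -0.28 in replicate 1 and 0.42 in replicate 3 with library size alone, and -0.24 and 0.39 with the length and GC trend removed. With 1 library left out it ran from -0.63 to -0.14 in replicate 1, from -0.41 to 0.14 in replicate 2 (reversed to 0.14 without replicate 3) and from 0.41 to 0.63 in replicate 3. Without replicate 3 the mean of *Psmb11* fell from 0.2964 to 0.1437 CPM, of *Psmb8* from 0.04455 to 0.02784 CPM and of *Psmg3* from 7.47 to 4.875 CPM, and 35 members differed beyond sampling noise. The coefficient of variation ran from 0.115, without replicate 3, to 0.363. No paired analysis was possible because there is 1 group. The 3 libraries, which allow no p under 0.25 by permutation, limit every statement on spread, and the 1 to 23 counts behind *Psmb8*, *Psmb9*, *Psmb11* and *Psma8* limit their ratios.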
